A study of Vitis vinifera with 72 samples.

Results

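Invertases are enzymes that split sucrose into glucose and fructose. Of the 29971 gene IDs in the expression table, 3 were followed here by their identifiers. They are GIN1 (VIT_16s0022g00670) and GIN2 (VIT_02s0154g00090), both vacuolar invertases, and a cell wall invertase, called CWINV below (VIT_09s0002g02320). Names and compartments are those under which the genes were chosen, since the table pairs its IDs with no names and no coordinates. RNA came from the pericarp (skin and flesh) of grape berries, Vitis vinifera, grown in the field in Italy. Each of 24 groups had 3 libraries, described by the series as biological replicates, and combined a growth stage, a cultivar, an area and a year. The stages were mid-ripening (MR, BBCH 83 on the scale of plant growth stages) and pre-veraison (PV, BBCH 79), before the onset of ripening. Cultivars were Sangiovese and Cabernet Sauvignon, both red wine grapes, the areas Bolgheri, Montalcino and Riccione, and the years 2012 and 2011. No group had a treatment, a mutation or a transgene, and the labels name no vineyard, so that area and vineyard cannot be told apart.

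A berry imports its carbon mainly as sucrose through the phloem. Cell wall invertases act on sucrose outside the cell membrane, where they keep sucrose flowing out of the phloem, and vacuolar invertases act on sucrose held inside the vacuole. The glucose and fructose they release are the main sugars of a ripe grape, and transcripts of grape vacuolar invertases are known to be most abundant in young berries.

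Values are FPKM (fragments normalized to transcript length and to the mapped fragments of the library). The scale is meant for comparing genes and libraries but remains relative within each library. FPKM summed to between 813505 and 1014766 per library. The correlation between replicates over all genes was at least 0.982, and 0 pairs of libraries were identical. MR and PV libraries lay fully apart on the leading principal component, which held 58.2% of the variance. Absolute read depth is unknown. The steps between low values gave an estimated depth of 0.516 (lowest) to 2.19 (highest) relative to the other libraries, and the libraries at either end were PV replicates of Cabernet Sauvignon, Bolgheri, 2012. Differences below are on the log2(FPKM + 1) scale, which understates changes of low genes. They come from a limma fit over all 72 libraries and 20443 genes that included all 3 invertases, and a gene is called at an adjusted p under 0.05.

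All 3 invertases were lower at MR than at PV. GIN1 was among the most abundant transcripts of the unripe berry and among the most reduced at MR. It measured 3.13 FPKM in the lowest, 16.6 in the median and 50.3 in the highest of 36 MR libraries, against 686, 932 and 1423 FPKM in the 36 PV libraries. No MR library reached the level of any PV library. Its median rank among all genes of a library was 6693 at MR and 69 at PV. GIN2 measured 11.2 (lowest), 24.7 (median) and 47.2 FPKM (highest) at MR, against 38.3, 60.6 and 143 FPKM at PV, so that the stages overlapped over a narrow range. CWINV was the least abundant of the 3, with 0.598 (lowest), 1.42 (median) and 7.28 FPKM (highest) at MR, against 5.22, 9.72 and 15.6 FPKM at PV. Its stages overlapped only through MR libraries of Sangiovese from Bolgheri in 2012, described below.

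The mean difference of 12 pairs of groups matched for cultivar, area and year was -6.00 for GIN1 (SE 0.0601, adjusted p = 9.15e-58). This is a 63.8-fold lower value of FPKM + 1 at MR. For GIN2 it was -1.40 (SE 0.0372, adjusted p = 4.7e-38) and for CWINV -2.08 (SE 0.0533, adjusted p = 1.12e-38). All 12 pairs had the negative sign for each gene. Calls in this direction were common, at 58.1% of all tested genes, so the count of 3 members is read against that share. The size of the GIN1 difference was not common: 18 of 20443 genes had a more negative one, which is 0.088%, against 12.4% for GIN2 and 6.05% for CWINV. In bulk tissue, fewer cells of a type and less RNA per cell cannot be told apart.

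FPKM is relative within a library, and the median of all genes differed between stages by -0.23, which median-of-ratios scaling turned to -0.059 and quantile normalization to 0.086. The part of all calls that were lower at MR was 63.5%, against 53.4% and 45.2% under these scalings. The 3 invertases kept their calls, at -5.78 and -5.99 for GIN1, -1.18 and -1.21 for GIN2 and -1.90 and -1.61 for CWINV. The CWINV value depends on the pseudocount, with -1.14 at a pseudocount of 5. With the 12 pairs of group means as the unit, adjusted p was 1.32e-09 for GIN1, 2.74e-05 for GIN2 and 4.58e-08 for CWINV.

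**Figure D1:**
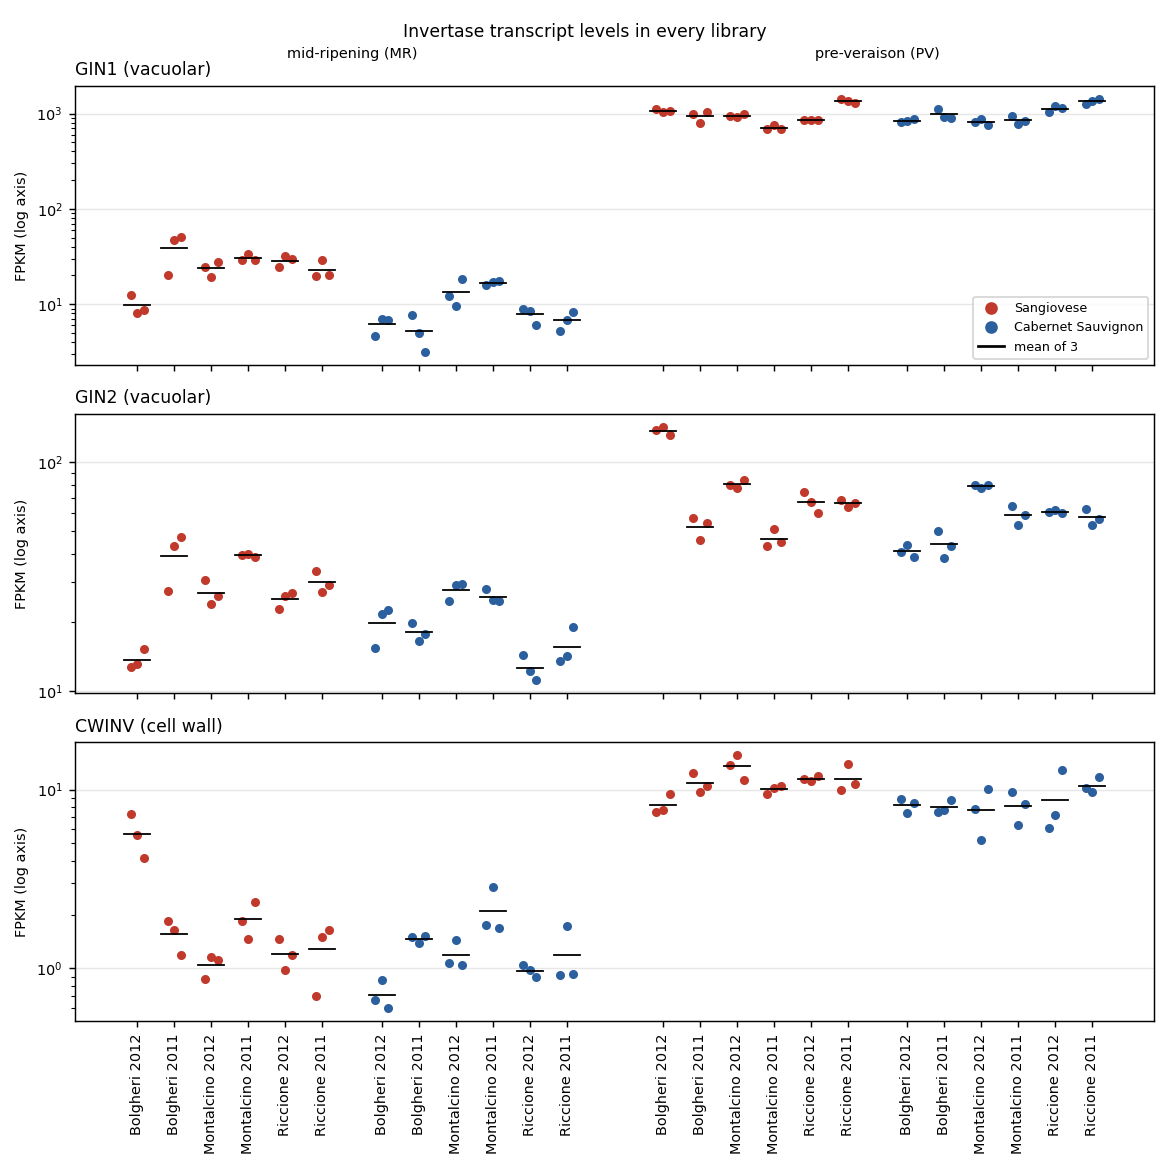
FPKM (log axes) of GIN1, GIN2 and CWINV in each of 72 libraries, with 3 points and a bar for the mean in each of 24 groups, MR groups on the left and Sangiovese left of Cabernet Sauvignon. GIN1 lies between 3.13 and 50.3 FPKM at MR and between 686 and 1423 FPKM at PV; the Sangiovese groups from Bolgheri in 2012 lie apart for GIN2 at PV and for CWINV at MR.

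The reduction at MR varied between pairs of groups. For GIN1 it lay between -7.46 and -4.50 and was called in 12 of 12 pairs. For CWINV it was also called in 12 of 12 pairs, between -2.81 and -0.48, and for GIN2 in 11 of 12, between -3.24 and -0.23. Between 70.5% and 76.7% of all genes were called, in either direction, in a pair of this kind. The GIN2 exception was Sangiovese from Montalcino in 2011, with 39.4, 40.0 and 38.8 FPKM at MR, against 43.0, 51.3 and 44.9 FPKM at PV. These ranges did not overlap, but the difference of -0.23 had an adjusted p of 0.109. The GIN2 difference furthest from 0 was that of Sangiovese from Bolgheri in 2012. GIN2 measured 12.7, 13.1 and 15.3 FPKM at MR, against 138, 143 and 132 FPKM at PV, a difference of -3.24 (SE 0.129, adjusted p = 9.04e-29). In 2011 the difference in Sangiovese from Bolgheri was -0.44 (adjusted p = 0.00215), and -0.21 (adjusted p = 0.139) without MR replicate 1.

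**Figure D2:**
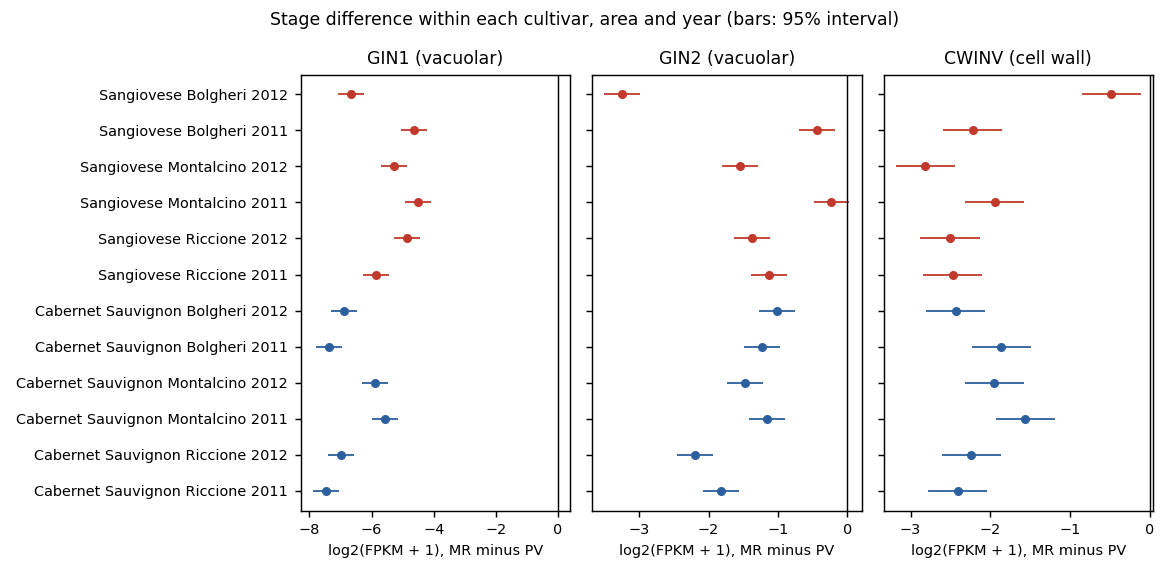
Difference of log2(FPKM + 1), MR minus PV, in 12 combinations of cultivar, area and year, with 95% intervals from the spread shared by all groups (Sangiovese in red, Cabernet Sauvignon in blue). All GIN1 points lie between -7.46 and -4.50; the GIN2 point of Sangiovese from Montalcino in 2011 has an interval that reaches 0, and the CWINV point closest to 0 is Sangiovese from Bolgheri in 2012.

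GIN1 fell less in Sangiovese than in Cabernet Sauvignon. The MR minus PV difference was -5.30 in Sangiovese (SE 0.0851, adjusted p = 9.97e-48) and -6.69 in Cabernet Sauvignon (SE 0.0851, adjusted p = 1.79e-52). The difference between these changes, 1.40 (SE 0.12), was positive in 6 of 6 environments (combinations of area and year), with an adjusted p of 6.89e-15. Of all genes, 66.5% were called in this test, and with 6 environment values as the unit the adjusted p was 0.022. GIN2 changed by -1.33 in Sangiovese and -1.48 in Cabernet Sauvignon, and CWINV by -2.07 in Sangiovese and -2.08 in Cabernet Sauvignon. Within Sangiovese 54.0% and within Cabernet Sauvignon 57.8% of all genes were called lower at MR. The cultivar difference of these changes was 0.16 for GIN2 (SE 0.0743, adjusted p = 0.0578) and 0.003 for CWINV (95% interval -0.21 to 0.22, adjusted p = 0.983). Both of these values rested on Sangiovese from Bolgheri in 2012. Without its groups they were 0.63 for GIN2 (adjusted p = 5.22e-09) and -0.39 for CWINV (adjusted p = 0.00294). In these and all later differences and F-tests without its groups, the groups matched to them are left out too.

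The make-up of the 3 transcripts also differed between stages. At MR the summed FPKM of the 3 genes was 43.8 ± 20.2, of which GIN1 held 36.7% ± 10.2, GIN2 58.6% ± 10.04 and CWINV 4.73% ± 4.83. At PV the sum was 1063 ± 214 FPKM, of which GIN1 held 92.8% ± 2.2, GIN2 6.28% ± 2.13 and CWINV 0.943% ± 0.263 (SD, n = 36 libraries per stage). GIN1 exceeded GIN2 in 7 of 36 MR libraries, against 36 of 36 PV libraries. The ratio of GIN1 to GIN2 FPKM was 0.670 ± 0.277 at MR, against 16.3 ± 5.0 at PV. All 7 MR libraries with more GIN1 than GIN2 were Sangiovese, as the plot of GIN1 against GIN2 shows. That ratio at MR was 0.877 ± 0.204 in Sangiovese and 0.463 ± 0.162 in Cabernet Sauvignon (SD, n = 18 libraries each), where it reached at most 0.702. These are descriptions, with no test.

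**Figure D3:**
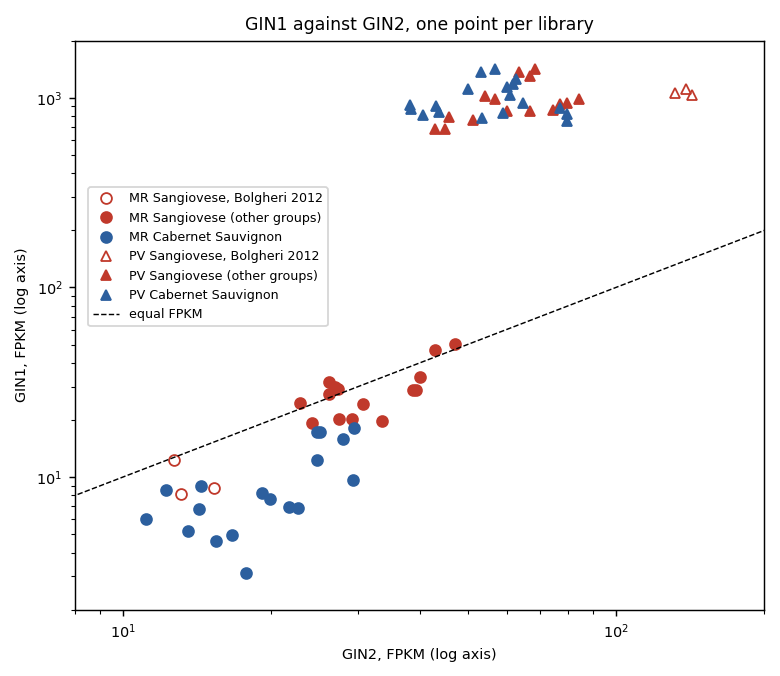
GIN1 FPKM against GIN2 FPKM (log axes), one point per library, with circles for MR, triangles for PV and open symbols for Sangiovese from Bolgheri in 2012. All 36 PV libraries lie above the line of equal FPKM; 7 of 36 MR libraries do, all of them Sangiovese.

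At MR, GIN1 was higher in Sangiovese than in Cabernet Sauvignon in every environment, and GIN2 in most. GIN1 measured 8.11 (lowest), 25.98 (median) and 50.3 FPKM (highest) in 18 Sangiovese libraries, against 3.13, 7.95 and 18.2 FPKM in 18 Cabernet Sauvignon libraries. The 15 Sangiovese libraries outside Bolgheri in 2012 started at 19.4 FPKM, above every Cabernet Sauvignon library. Averaged over 6 environments the GIN1 difference was 1.38 (SE 0.0851, adjusted p = 1.12e-20). It was called in 6 of 6 environments, between 0.58 in Bolgheri in 2012 and 2.65 in Bolgheri in 2011, where 48.4% to 58.8% of all genes were called in either direction. These calls used a spread shared by both stages, and single environments were not refitted with the MR libraries alone. GIN1 varied more between replicates at MR (median coefficient of variation 22.1%) than at PV (6.26%), so its SE at MR may be too small. In Bolgheri in 2011, GIN1 measured 20.2, 46.6 and 50.3 FPKM in Sangiovese, against 7.66, 4.92 and 3.13 FPKM in Cabernet Sauvignon. With environment values as the unit the adjusted p of GIN1 was 0.00868. In Bolgheri in 2012, leaving out Sangiovese replicate 1 or Cabernet Sauvignon replicate 1 gave 0.42 each, with an adjusted p of 0.119.

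GIN2 at MR averaged 29.1 ± 9.9 FPKM in Sangiovese and 20.0 ± 5.9 FPKM in Cabernet Sauvignon (SD, n = 18 libraries each), a difference of 0.49 (SE 0.0526, adjusted p = 4.93e-12). It was called higher in Sangiovese in 4 of 6 environments and lower in 1, Bolgheri in 2012, at -0.50 (adjusted p = 0.000791). With environment values as the unit the GIN2 difference was not called (adjusted p = 0.129). CWINV at MR averaged 2.11 ± 1.77 FPKM in Sangiovese and 1.27 ± 0.53 FPKM in Cabernet Sauvignon, a difference of 0.33 (SE 0.0754, adjusted p = 9.14e-05). One environment, Bolgheri in 2012, carried it, and without that group the difference was 0.013 (adjusted p = 0.899). All 3 invertases were thus called higher in Sangiovese at MR on average, as were 46.7% of all genes. Of all calls at MR 64.5% were higher in Sangiovese, against 50.4% under median-of-ratios scaling and 48.9% under quantile normalization. The 3 invertases stayed called higher under both.

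At PV the cultivars were close in GIN1 when averaged over environments. It averaged 981 ± 214 FPKM in Sangiovese and 994 ± 207 FPKM in Cabernet Sauvignon (SD, n = 18 libraries each), a difference of -0.023 with a 95% interval of -0.19 to 0.15 (adjusted p = 0.823). None of the 6 environments was called, with values between -0.39 and 0.34 and a spread shared by both stages. Ranges overlapped only in Bolgheri and Riccione in 2011. Sangiovese was higher in 2012 in Bolgheri (1029 to 1108 against 816 to 873 FPKM) and Montalcino (931 to 985 against 757 to 887 FPKM). It was lower in Riccione in 2012 (851 to 863 against 1032 to 1187 FPKM) and Montalcino in 2011 (686 to 766 against 784 to 933 FPKM). GIN2 and CWINV were called higher in Sangiovese, as were 39.2% of all genes. GIN2 averaged 75.0 ± 31.2 FPKM in Sangiovese and 56.8 ± 13.2 FPKM in Cabernet Sauvignon, a difference of 0.33 (SE 0.0526, adjusted p = 1.46e-07). Without Sangiovese from Bolgheri in 2012 this was 0.055 (adjusted p = 0.411). By environment, GIN2 was called higher in Bolgheri in 2012 and lower in Montalcino in 2011 (-0.34, adjusted p = 0.0248), a call that ended without any of 4 of its 6 libraries. CWINV averaged 10.9 ± 2.1 FPKM in Sangiovese and 8.53 ± 1.93 FPKM in Cabernet Sauvignon, a difference of 0.33 (SE 0.0754, adjusted p = 0.000101) that was 0.40 (adjusted p = 2.3e-05) without that group. It was called in 2 of 6 environments, both in 2012, with 0.77 in Montalcino and 0.43 in Riccione. The Riccione call ended without any of 5 of its 6 libraries. At PV, 44.3% to 64.1% of all genes were called per environment.

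**Figure D4:**
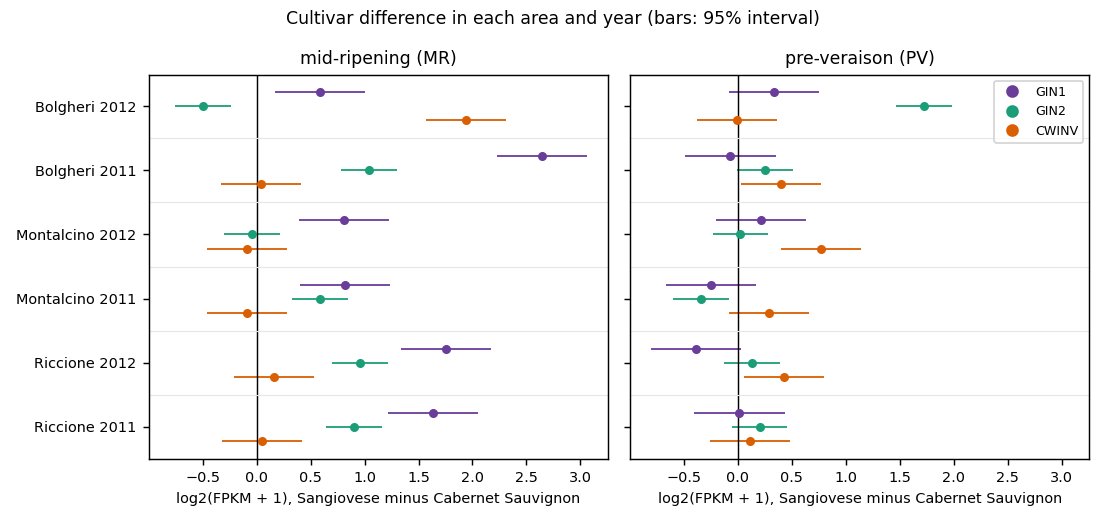
Difference of log2(FPKM + 1), Sangiovese minus Cabernet Sauvignon, in each of 6 environments at MR (left) and PV (right), with 95% intervals from the spread shared by all groups. GIN1 lies above 0 in 6 of 6 environments at MR and has intervals that include 0 at PV; in Bolgheri in 2012 GIN2 is below 0 at MR and at 1.73 at PV, and CWINV is at 1.94 at MR.

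The cultivar difference varied with the environment in several cases, by an F-test over the 6 environments. At MR it did so for GIN1 (F = 14.1, adjusted p = 8.38e-08), GIN2 (F = 23.7, adjusted p = 6.71e-11) and CWINV (F = 18.4, adjusted p = 2.52e-09), as for 67.2% of all genes. At PV it did so for GIN2 (F = 30.8, adjusted p = 8.55e-13), as for 68.1% of all genes, while GIN1 (adjusted p = 0.186) and CWINV (adjusted p = 0.0963) did not pass. GIN1 at PV did pass in a fit to the PV libraries alone (F = 9.74, adjusted p = 9.29e-05), under quantile normalization (F = 4.10, adjusted p = 0.00602) and with a pseudocount of 5 (F = 2.64, adjusted p = 0.0491). The coefficient of variation of GIN1 between replicates had a median of 22.1% at MR and 6.26% at PV, and its part in this was not tested. The CWINV result at MR rested on Sangiovese from Bolgheri in 2012, without which F was 0.337 (adjusted p = 0.911).

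The Sangiovese groups from Bolgheri in 2012 stood apart from all other libraries of their stage for GIN2 at PV and for CWINV at MR, and from the other Sangiovese MR libraries for GIN1 and GIN2. GIN2 at PV measured 138, 143 and 132 FPKM there, against 84.0 FPKM in the highest of the other 33 PV libraries. The matched Cabernet Sauvignon group had 40.6, 43.8 and 38.4 FPKM, and the cultivar difference of 1.73 (SE 0.129, adjusted p = 4.84e-17) was the largest of the 12 GIN2 values. GIN1 in the same libraries was inside the range of the rest, at 1108, 1029 and 1061 FPKM in a range of 686 to 1423 FPKM over the other PV libraries.

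At MR this group had little vacuolar invertase transcript for its cultivar. GIN1 measured 12.4, 8.11 and 8.77 FPKM, against 19.4 to 50.3 FPKM in the other 15 Sangiovese libraries. GIN2 measured 12.7, 13.1 and 15.3 FPKM, against 22.8 to 47.2 FPKM in those libraries. None of these ranges overlapped. CWINV was high instead, with 7.28, 5.60 and 4.14 FPKM, against a median of 1.18 and a maximum of 2.84 FPKM in the other 33 MR libraries. Against Cabernet Sauvignon from the same area and year, with 0.663, 0.861 and 0.598 FPKM, the CWINV difference was 1.94 (SE 0.185, adjusted p = 3.36e-13). In the other 5 environments it lay between -0.092 and 0.16, with no call. CWINV held 22.5%, 20.9% and 14.7% of the summed invertase FPKM in these 3 libraries.

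CWINV thus differed little between stages in Sangiovese from Bolgheri in 2012, with the MR values above beside 7.51, 7.65 and 9.42 FPKM at PV. The difference of -0.48 (SE 0.185, adjusted p = 0.0161) was the smallest of 12 pairs. It was no longer called without MR replicate 3 (-0.31, adjusted p = 0.161) or PV replicate 3 (-0.39, adjusted p = 0.0838). Median-of-ratios scaling gave -0.27 (adjusted p = 0.177) and quantile normalization 0.012 (adjusted p = 0.969). Relative depth of the 6 libraries lay between 0.802 and 1.12. The comparison of cultivars in Bolgheri in 2012 also had the highest percentage of all genes called among the 6 environments at both stages. The part of that wider difference in the invertase values was not tested.

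Averaged over cultivars and years, the vacuolar invertases were highest in Montalcino at MR. GIN1 at MR averaged 15.05 ± 16.24 FPKM in Bolgheri, 16.6 ± 10.4 FPKM in Riccione and 21.1 ± 7.5 FPKM in Montalcino (SD, n = 12 libraries each). Bolgheri minus Montalcino was -0.88 (SE 0.104, adjusted p = 6.6e-10) and Riccione minus Montalcino -0.51 (adjusted p = 6.66e-05), each negative in 3 of 4 combinations of cultivar and year. The exceptions were Sangiovese in 2011, where Bolgheri averaged 39.05 FPKM and Montalcino 30.6 FPKM, and Sangiovese in 2012, where Riccione averaged 28.7 FPKM and Montalcino 23.7 FPKM. GIN2 averaged 22.7 ± 11.3 FPKM in Bolgheri, 20.9 ± 7.7 FPKM in Riccione and 30.0 ± 6.0 FPKM in Montalcino. Its differences from Montalcino were -0.48 for Bolgheri (SE 0.0644, adjusted p = 1.26e-08) and -0.57 for Riccione (adjusted p = 3.02e-10), both negative in 4 of 4 combinations. In Sangiovese in 2011, however, Bolgheri and Montalcino were nearly equal, at 39.2 ± 10.4 and 39.4 ± 0.6 FPKM (SD, n = 3 each). The F-test over areas was called at MR for GIN1 (adjusted p = 2.09e-09), GIN2 (adjusted p = 9.89e-11) and CWINV (adjusted p = 0.000317), as for 60.2% of all genes. With group means as the unit none of the 3 was called.

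In Cabernet Sauvignon, Montalcino lay apart from both other areas. GIN1 at MR lay between 3.13 and 7.66 FPKM in Bolgheri and between 5.22 and 8.96 FPKM in Riccione, against 9.65 to 18.2 FPKM in Montalcino (n = 6 libraries each). GIN2 lay between 15.5 and 22.7 FPKM in Bolgheri and between 11.2 and 19.2 FPKM in Riccione, against 24.7 to 29.5 FPKM in Montalcino. In Sangiovese the areas overlapped, with GIN1 at 8.11 to 50.3 FPKM in Bolgheri, 19.7 to 31.8 FPKM in Riccione and 19.4 to 33.9 FPKM in Montalcino. For each gene the area ranges within a cultivar are a description, with no test.

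CWINV at MR averaged 2.35 ± 2.15 FPKM in Bolgheri, 1.16 ± 0.33 FPKM in Riccione and 1.55 ± 0.58 FPKM in Montalcino. Riccione minus Bolgheri was -0.43 (adjusted p = 0.000174), and -0.053 (adjusted p = 0.773) without Sangiovese from Bolgheri in 2012. Bolgheri minus Montalcino was 0.21 (adjusted p = 0.0597), and turned to -0.28 (adjusted p = 0.0252) without it. Riccione minus Montalcino was -0.22 (adjusted p = 0.0457), a call that ended when any of 13 libraries was left out. Among all genes, 44.6% were called at MR for Bolgheri minus Montalcino, 42.6% for Riccione minus Montalcino and 35.9% for Riccione minus Bolgheri. For GIN1 the last of these was 0.37 (adjusted p = 0.00358), and 0.0055 (adjusted p = 0.988) without Sangiovese from Bolgheri in 2012. For GIN2 it was -0.081 (adjusted p = 0.351), and -0.39 (adjusted p = 9.95e-05) without it.

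At PV the highest mean of GIN1 was in Riccione rather than Montalcino. Whether its area differences differed between stages was not tested. GIN1 averaged 1172 ± 222 FPKM in Riccione, against 956 ± 113 FPKM in Bolgheri and 833 ± 101 FPKM in Montalcino (SD, n = 12 libraries each). Riccione minus Montalcino was 0.48 (SE 0.104, adjusted p = 0.000287) and Riccione minus Bolgheri 0.28 (adjusted p = 0.0241, and 0.0504 without Sangiovese replicate 2 from Bolgheri in 2011). Bolgheri minus Montalcino was 0.20 (adjusted p = 0.124), and was called in a fit to the PV libraries alone (adjusted p = 0.000726). The exception was Sangiovese from Riccione in 2012, whose GIN1 level is given below with the years. GIN1 alone passed the area F-test at PV (adjusted p = 0.000459), as did 62% of all genes; with group means as the unit it did not. CWINV did not pass that test (adjusted p = 0.093). Riccione minus Bolgheri was 0.22 for CWINV (adjusted p = 0.0414), a call that ended without any of 11 libraries. GIN2 did not pass the F-test (adjusted p = 0.337), but did without Sangiovese from Bolgheri in 2012 (F = 15.1, adjusted p = 4.58e-05). Bolgheri minus Montalcino was then -0.39 and Riccione minus Bolgheri 0.43. In Cabernet Sauvignon GIN2 was lowest in Bolgheri, at 38.3 to 50.1 FPKM, against 53.3 to 62.6 FPKM in Riccione and 53.4 to 79.7 FPKM in Montalcino (n = 6 libraries each). In Sangiovese in 2011 it averaged 52.4 ± 5.8 FPKM in Bolgheri, 66.3 ± 2.4 FPKM in Riccione and 46.4 ± 4.4 FPKM in Montalcino (SD, n = 3 each), and Bolgheri and Montalcino overlapped. Over all genes, 41.2% were called at PV for Bolgheri minus Montalcino, 33.0% for Riccione minus Montalcino and 48.3% for Riccione minus Bolgheri.

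GIN2 differed between years, in opposite directions at the 2 stages. At MR it averaged 21.1 ± 6.7 FPKM in 2012 and 28.0 ± 10.3 FPKM in 2011 (SD, n = 18 libraries each), a difference of -0.38 (SE 0.0526, adjusted p = 5.7e-08). At PV it averaged 77.6 ± 30.9 FPKM in 2012 and 54.3 ± 8.9 FPKM in 2011, a difference of 0.43 (SE 0.0526, adjusted p = 5.77e-10). Of all genes, 41.5% were called for year at MR and 59.1% at PV. Without Sangiovese from Bolgheri in 2012 the values were -0.17 at MR (adjusted p = 0.0192) and 0.24 at PV (adjusted p = 0.00055). With combinations of cultivar and area as the unit neither was called, at an adjusted p of 0.515 for MR and 0.215 for PV. The labels name no sequencing batch, and a batch that followed the year cannot be told apart from it.

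Most combinations with a called GIN2 difference between years were Sangiovese. At MR it was called lower in 2012 in 2 of 6 combinations of cultivar and area, Sangiovese from Bolgheri (-1.42) and Montalcino (-0.54). At PV it was called higher in 3 of 6, Sangiovese from Bolgheri (1.38) and Montalcino (0.78) and Cabernet Sauvignon from Montalcino (0.41, and 0.35 with an adjusted p of 0.059 without its 2011 replicate 2). In Montalcino at PV, Sangiovese measured 79.6, 77.1 and 84.0 FPKM in 2012 against 43.0, 51.3 and 44.9 FPKM in 2011, with no overlap. Cabernet Sauvignon measured 79.7, 77.1 and 79.5 FPKM there in 2012 against 64.7, 53.4 and 58.97 FPKM in 2011, again with no overlap. In such single comparisons of years between 15.5% and 40.7% of all genes were called at MR and between 34.2% and 50.5% at PV. The year difference of GIN2 differed between cultivars at MR (-0.71, adjusted p = 8.1e-07) and at PV (0.59, adjusted p = 1.75e-05). Without Sangiovese from Bolgheri in 2012, and so without any Bolgheri group, these were -0.29 (adjusted p = 0.13) and 0.15 (adjusted p = 0.485). With all groups, 29.4% of all genes at MR and 26% at PV were called in this test.

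GIN1 was called lower in 2012 at MR, through a single combination. GIN1 at MR averaged 14.9 ± 9.0 FPKM in 2012 and 20.2 ± 13.9 FPKM in 2011, a difference of -0.30 (SE 0.0851, adjusted p = 0.00398). Sangiovese from Bolgheri carried it, at -1.82 (adjusted p = 4.93e-10). Without its 2012 groups, and so without its pair of years, the GIN1 difference was 0.0090 (adjusted p = 0.961). The cultivar difference of this year difference was then no longer called (0.056, against -0.65 before), with all of Bolgheri left out. At PV GIN1 averaged 943 ± 125 FPKM in 2012 and 1031 ± 262 FPKM in 2011, a difference of -0.097 (adjusted p = 0.336, and 0.0211 in a fit to the PV libraries alone). One combination was called, Sangiovese from Riccione, with 863, 851 and 855 FPKM in 2012 against 1423, 1366 and 1298 FPKM in 2011 (-0.67, adjusted p = 0.0084). Ranges were apart in uncalled ones too. Sangiovese was higher in 2012 in Montalcino (931 to 985 against 686 to 766 FPKM) and, narrowly, Bolgheri (1029 to 1108 against 796 to 1028 FPKM). Cabernet Sauvignon was lower in 2012 in Riccione (1032 to 1187 against 1258 to 1420 FPKM) and Bolgheri (816 to 873 against 907 to 1116 FPKM), and overlapped in Montalcino. The 2011 libraries of Sangiovese from Riccione and those of Cabernet Sauvignon from Riccione in 2011, at 1258, 1370 and 1420 FPKM, were the 6 highest for GIN1 in the series.

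CWINV at MR averaged 1.8 ± 1.9 FPKM in 2012 and 1.58 ± 0.50 FPKM in 2011, a difference of -0.047 on the log2 scale (95% interval -0.20 to 0.10, adjusted p = 0.666). The FPKM means and the log2 difference have opposite signs. Without Sangiovese from Bolgheri in 2012 the difference was -0.33 (adjusted p = 0.000892). By combination, CWINV at MR was called higher in 2012 in Sangiovese from Bolgheri (1.37, adjusted p = 2.8e-08) and lower in 3 others, between -0.53 and -0.48. Each of these 3 calls ended without at least 1 library, with an adjusted p of up to 0.301. In Cabernet Sauvignon from Bolgheri it measured 0.663, 0.861 and 0.598 FPKM in 2012 against 1.49, 1.39 and 1.51 FPKM in 2011. The year difference of CWINV at MR differed between cultivars (0.67, adjusted p = 0.00054), a call that was lost without the Bolgheri groups (0.054, adjusted p = 0.906). At PV CWINV averaged 9.63 ± 2.79 FPKM in 2012 and 9.84 ± 1.79 FPKM in 2011, with no call in any of the 6 combinations.

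**Figure D5:**
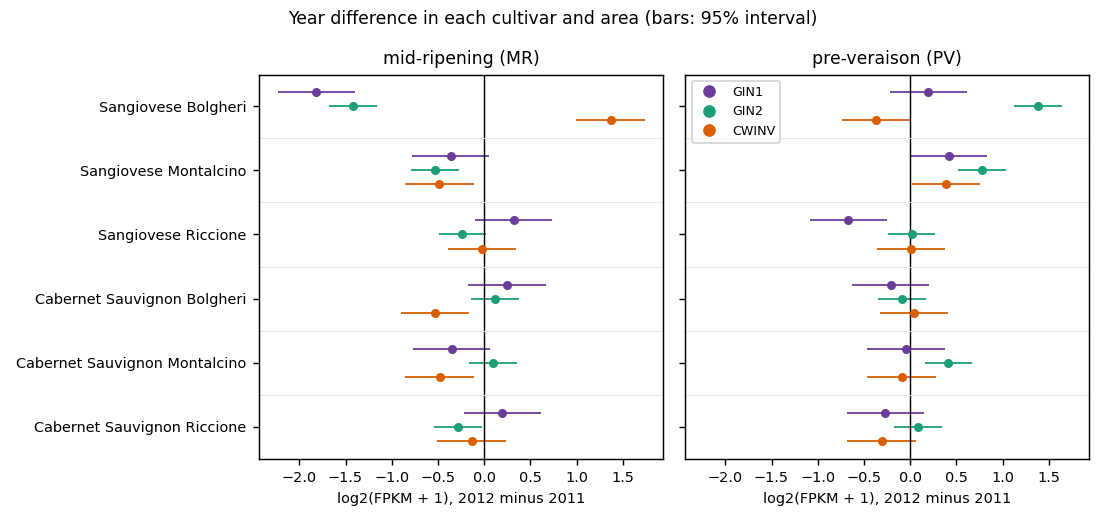
Difference of log2(FPKM + 1), 2012 minus 2011, in each of 6 combinations of cultivar and area at MR (left) and PV (right), with 95% intervals from the spread shared by all groups. In Sangiovese from Bolgheri at MR, GIN1 is at -1.82, GIN2 at -1.42 and CWINV at 1.37; at PV the GIN2 value of that combination is 1.38.

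Ordered by mean level, most neighbouring groups had overlapping ranges of their 3 libraries. Among 11 neighbouring pairs in the order of 12 groups, the ranges overlapped in 10 for GIN1 at MR, 10 for GIN2 at MR and 9 for CWINV at MR. At PV they overlapped in 10 for GIN1, 8 for GIN2 and 11 for CWINV. The gap for GIN1 at MR lay between 5 Sangiovese groups, from 39.05 ± 16.43 FPKM (Bolgheri in 2011) to 23.1 ± 5.3 FPKM (Riccione in 2011), and the highest Cabernet Sauvignon group, 16.8 ± 0.8 FPKM (Montalcino in 2011; SD, n = 3). The lowest group was Cabernet Sauvignon from Bolgheri in 2011, with 5.24 ± 2.28 FPKM. For GIN2 at MR the gap lay below Sangiovese from Riccione in 2012, with 25.3 ± 2.2 FPKM. For CWINV at MR the gaps set off the highest group, Sangiovese from Bolgheri in 2012, and the lowest, Cabernet Sauvignon from Bolgheri in 2012, with 0.707 ± 0.137 FPKM. The highest group mean exceeded the lowest 7.46-fold for GIN1, 3.13-fold for GIN2 and 8.02-fold for CWINV at MR, against 1.91-fold, 3.36-fold and 1.76-fold for the same genes at PV.

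Across the 12 MR groups the vacuolar invertases varied together, with a Pearson r of 0.834 for GIN1 and GIN2, against 0.245 across the 12 PV groups. The r of CWINV at MR was 0.047 with GIN1 and -0.16 with GIN2, and 0.444 and 0.525 without Sangiovese from Bolgheri in 2012. These values describe group means of log2(FPKM + 1), which share libraries and scaling, and carry no p.

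Among 13469 other genes with a group mean of at least 10 FPKM, those most like each invertase over 24 groups were found by Pearson r. For GIN1 they were VIT_03s0038g02230 (r = 0.992) and VIT_18s0001g14450 (r = 0.992). For CWINV they were VIT_06s0009g00440 (r = 0.976) and VIT_05s0102g00750 (r = 0.970). Within stages, the r with GIN1 over 12 groups was 0.934 at MR and 0.416 at PV for VIT_03s0038g02230, and 0.968 at MR and -0.036 at PV for VIT_18s0001g14450. With CWINV it was 0.864 at MR and 0.511 at PV for VIT_06s0009g00440, and 0.864 at MR and 0.056 at PV for VIT_05s0102g00750. In all, 2093 genes reached an r of 0.9 with GIN1 and 1001 with CWINV. Only 84 did so with GIN2, whose most similar genes were VIT_00s2527g00010 (r = 0.995) and VIT_00s0233g00010 (r = 0.979), with the next gene at 0.939. Both followed GIN2 within each stage too, with an r over 12 groups of 0.980 (VIT_00s2527g00010) and 0.916 (VIT_00s0233g00010) at MR, and 0.996 and 0.959 at PV. In every one of 72 libraries GIN2 exceeded VIT_00s2527g00010, by 0.48 ± 0.12 (SD) and between 0.22 and 0.83 on the log2(FPKM + 1) scale. VIT_00s2527g00010 averaged 17.0 ± 6.1 FPKM at MR and 47.5 ± 18.2 FPKM at PV (SD, n = 36 libraries each). No annotation used here describes these IDs, and whether they share reads with GIN2 was not tested.

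Other genes of sugar metabolism and transport were taken from a list of 21 IDs recalled from published grapevine names and not checked against an annotation. The list held no invertase followed here, and 18 of its IDs passed the filter. At MR against PV 10 were called higher and 8 lower (11 and 7 under both rescalings), with a median of 0.73 beside -0.23 over all tested genes, of which 58.1% were called lower. Over all genes 36.5% of the calls were higher at MR, against 46.6% under median-of-ratios scaling and 54.8% under quantile normalization. VIT_01s0146g00260 had the highest difference, at 1003 ± 485 FPKM at MR and 27.6 ± 43.6 FPKM at PV (6.22), followed by VIT_17s0000g00830 (3.32). The lowest were VIT_18s0076g00250 (-3.75) and VIT_05s0077g01930 (-2.27), neither of them as low as GIN1. For Sangiovese against Cabernet Sauvignon at MR, 12 of 18 were called higher, beside 46.7% of all genes, and 2 lower, with a median of 0.35 beside 0.082 over all genes (10 and 4 under median-of-ratios scaling, 11 and 1 under quantile normalization). VIT_18s0001g05570 (1.75) and VIT_00s0181g00010 (1.45) led, and VIT_18s0076g00250 (-0.64) and VIT_07s0005g00750 (-0.11) were the lower ones. The same comparison at PV gave 8 of 18 higher, beside 39.2% of all genes, and 3 lower, and medians of 0.14 (list) and 0.021 (all genes). Over all genes, 35.5% of the cultivar calls at MR and 47% at PV were lower in Sangiovese. Between years 6 were higher and 3 lower in 2012 at MR, where 41.5% of all genes were called, with a median of -0.059 beside 0.0030 over all genes. At PV 4 were higher and 9 lower, where 59.1% of all genes were called, with a median of -0.15 beside -0.027 over all genes.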

How the data were processed

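The deposited table holds FPKM made by the authors, 1 column per library, with 0 columns unused. Per the submitters' processing notes the tools were CASAVA 1.8.2, TopHat2 2.0.9 and Cufflinks 2.1.1. The sources used here do not give options, genome build or annotation. Libraries were non-directional, per the labels' protocols, so overlapping genes on opposite strands cannot be told apart. FPKM is relative within a library, and no counting intervals are given, since counts are unknown. In the depth estimate, 95.8% of values under 3.5 reads lay within 0.1 of a whole read, a share partly set by the fit itself.

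With limma 3.58.1 in R 4.3.3, log2(FPKM + 1) was fitted as 24 group means (48 residual degrees of freedom, trended prior), with Benjamini-Hochberg adjustment over 20443 genes with a group mean of at least 1 FPKM. Contrasts average matched pairs of groups. The fit was tested on simulated data with the same spread for a gene in every library. Such data cannot show what a spread that differs between stages does. Genes named are the 3 members, the 2 most like each and, from the sugar list, the 2 largest called differences each way per comparison described in full (stage, and cultivar at MR). Members and lists were chosen with earlier results of these data known. Of the file's IDs, 0 matched the RefSeq gene table. Alternatives were pseudocounts, filters, scalings, a robust prior, one stage alone, group means as the unit, each library left out, and, chosen after seeing the data, omission of Sangiovese from Bolgheri in 2012. That omission also takes out of each contrast the groups matched to the omitted ones, which for cultivar by year is all of Bolgheri.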

Additional observations from a re-analysis of the deposited data

Results flagged for a closer look

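Several differences were not the same in all groups by a test of the difference itself. GIN1 differed in its stage change between cultivars (1.40, Sangiovese minus Cabernet Sauvignon). Its year difference at MR differed between cultivars (-0.65), and its cultivar difference at MR varied over environments (F = 14.1). For GIN2 the year difference differed between cultivars at MR (-0.71) and at PV (0.59), and the cultivar difference varied over environments at MR (F = 23.7) and at PV (F = 30.8). For CWINV the same tests were called at MR only, with 0.67 for cultivar and year and F = 18.4 for cultivar and environment. Such calls were common. Most of all tested genes were called for cultivar by stage and for cultivar by environment, and a smaller share for cultivar by year, as given above. With group means as the unit every cultivar by year call was lost, and cultivar by environment could not be fitted. Without Sangiovese from Bolgheri in 2012 the cultivar by year calls were also lost, as was the CWINV call for cultivar by environment. The sources of the differences listed were not tested.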

How the results depend on the processing

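Over the 3 genes, 5335 of 5514 values under alternatives kept direction and side of the threshold, 87 lost the call, 44 gained it and 48 changed sign, but 4586 of the 5335 left out only 1 library. With group means as the unit 22 values stayed and 14 lost the call. Without Sangiovese from Bolgheri in 2012, 39 stayed, 9 lost the call, 6 gained it and 6 changed sign. The call and direction of GIN1 at MR against PV, of its cultivar difference at MR and of its cultivar difference in stage change held under every alternative run. No paired analysis was possible because the labels give no replicate numbers; the numbers used here follow the order of the samples and only name libraries.

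With group means as the unit, values stayed and calls ended for the cultivar difference of GIN2 at MR (0.49) and PV (0.33) and CWINV at MR (0.33); for the year difference of GIN1 at MR (-0.30) and GIN2 at MR (-0.38) and PV (0.43); for cultivar by year in GIN1 (-0.65), GIN2 (-0.71) and CWINV (0.67) at MR and GIN2 at PV (0.59); and for area, where F was 3.44 (GIN1), 3.93 (GIN2) and 0.882 (CWINV) at MR and 3.88 (GIN1) at PV. This fit has fewer units, and cultivar by environment could not be fitted in it. Over all genes it called 7995 (against 14807) for cultivar at MR, 8045 (15116) for cultivar at PV, 4455 (13590) for cultivar by stage, 0 (8476) for year at MR, 1562 (12077) for year at PV, and 0 for cultivar by year at MR (6014) and PV (5320). At an unadjusted p under 0.05 this limma fit had 2454 genes for year at MR, and 786 at MR and 774 at PV for cultivar by year.

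Leaving out Sangiovese from Bolgheri in 2012, chosen after seeing the data, gave for CWINV 0.013 (cultivar at MR), F = 0.337 (cultivar by environment at MR), 0.054 (cultivar by year at MR), -0.39 (cultivar by stage), -0.33 (year at MR), 0.0070 (year at PV), and -0.28 at MR and 0.073 at PV (Bolgheri minus Montalcino). For GIN1 it gave 0.0090 (year at MR) and 0.056 (cultivar by year at MR). For GIN2 it gave 0.055 (cultivar at PV), 0.63 (cultivar by stage), -0.29 at MR and 0.15 at PV (cultivar by year), and F = 15.1 (area at PV). It left 3428 genes called for cultivar by year at MR.

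A pseudocount of 5 gave CWINV F = 4.32 (area at PV), F = 3.06 (cultivar by environment at PV), -0.086 (cultivar by stage) and 0.013 (year at MR), and GIN1 F = 2.64 (cultivar by environment at PV); a pseudocount of 0.1 gave GIN2 0.17 (cultivar by stage). Quantile normalization gave GIN1 0.037 (cultivar at PV) and F = 4.10 (cultivar by environment at PV), and CWINV -0.13 (cultivar by stage) and 0.012 (stage, Sangiovese from Bolgheri in 2012). Median-of-ratios scaling gave CWINV -0.043 (cultivar by stage). A fit to 1 stage alone gave GIN1 at PV F = 9.74 (cultivar by environment) and -0.10 (year). With each library left out, CWINV ranged from 1.67 to 4.39 (area F at PV), 1.33 to 3.34 (cultivar by environment F at PV) and -0.045 to 0.040 (cultivar by stage), and GIN2 from 0.13 to 0.20 (cultivar by stage). Where a call changed, the cause was not tested. Depth is unknown, so no counting limit can be given for CWINV, the lowest of the 3.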
